A study of Mus musculus with 18 samples.

Results

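The proteasome is the large protease that degrades proteins tagged with ubiquitin, and its subunit genes were followed here in mouse liver. Members were all genes whose symbol in the array annotation begins with Psma, Psmb, Psmc or Psmd followed by a number. These were 37 of the 17097 genes that had a probe set with a single gene symbol. Of the 39 such names that were listed, Psmc6 and Psmd10 were matched to no probe set with a single gene symbol and were not followed. Where a gene had several probe sets, the one with the highest mean over all 18 arrays stood for it. Probe sets were thus chosen by their mean level, which is not a result. The family was singled out with results of the transgenic comparison already known. Its values in that comparison are therefore a description of these arrays and support nothing beyond them.

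Liver RNA came from female mice 6 to 8 weeks old in 4 groups. In the transgenic model, 5 NPC1L1 liver-transgenic samples were set against 5 wild type samples, all on C57BL/6. In the antisense model, 4 samples treated with an ACAT2 antisense oligonucleotide (ASO) were set against 4 treated with a non-targeting control ASO, all on C57BL/6N. NPC1L1 is a cholesterol transporter and ACAT2 an enzyme that esterifies cholesterol. The study used the pair as chronic and acute ways to stimulate the excretion of cholesterol through the intestine. The labels used here do not state the promoter or species of the transgene, or the dose and duration of the ASO. They also do not state that each sample is a separate animal, so a p-value speaks of the spread among the samples given, which may be technical only.

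In the form that degrades proteins tagged with ubiquitin, the proteasome consists of a barrel-shaped core and a cap. The core has outer alpha rings, which form the gate, and inner beta rings, which carry the proteolytic sites. The cap has a base, where a ring of ATPases unfolds the substrate, and a lid, which removes ubiquitin. In immune and interferon-exposed cells, Psmb8, Psmb9 and Psmb10 replace the catalytic beta subunits Psmb5, Psmb6 and Psmb7, which gives the immunoproteasome. The transcription factor NRF1, encoded by Nfe2l1, is known to raise subunit genes together when proteasome activity falls, through antioxidant response elements in their promoters.

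The promoters of 4 members are shown because these genes carry the differences described below. They are the 3 members with the highest log2 changes in the transgenic model, and Psmb5, the member with the lowest adjusted p there. Each sequence is the 250 bases before the RefSeq start of the gene (build GRCm38.p6), written 5′ to 3′ on the strand of the gene. Capitals mark a CCAAT box (CCAAT) or the core of the antioxidant response element (TGACNNNGC), searched on both strands, so that a CCAAT box of the other strand appears as ATTGG. Psmd14 lies at chr2:61711444-61711693 and Psmd1 at chr1:86064369-86064618, both on the plus strand. Psmb3 lies at chr11:97703184-97703433 on the plus strand and Psmb5 at chr14:54617996-54618245 on the minus strand.
Psmd14: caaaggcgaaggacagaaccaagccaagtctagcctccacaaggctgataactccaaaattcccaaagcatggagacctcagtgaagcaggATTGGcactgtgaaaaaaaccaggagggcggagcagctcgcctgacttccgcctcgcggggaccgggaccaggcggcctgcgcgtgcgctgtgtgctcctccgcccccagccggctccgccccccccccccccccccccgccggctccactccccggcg
Psmd1: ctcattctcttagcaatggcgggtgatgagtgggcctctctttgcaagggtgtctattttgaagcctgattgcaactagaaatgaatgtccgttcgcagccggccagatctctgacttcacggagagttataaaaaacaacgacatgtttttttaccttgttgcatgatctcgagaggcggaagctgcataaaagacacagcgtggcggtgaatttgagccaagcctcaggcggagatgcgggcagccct
Psmb3: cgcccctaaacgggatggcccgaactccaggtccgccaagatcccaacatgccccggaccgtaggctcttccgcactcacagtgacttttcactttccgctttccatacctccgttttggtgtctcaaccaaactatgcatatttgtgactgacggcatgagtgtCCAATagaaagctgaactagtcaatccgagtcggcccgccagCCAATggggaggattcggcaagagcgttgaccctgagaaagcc
Psmb5: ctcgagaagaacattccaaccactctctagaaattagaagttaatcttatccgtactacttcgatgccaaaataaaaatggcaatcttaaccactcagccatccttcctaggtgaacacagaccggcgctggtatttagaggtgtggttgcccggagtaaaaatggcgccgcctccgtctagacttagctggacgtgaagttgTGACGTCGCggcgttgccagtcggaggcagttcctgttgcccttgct

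The Psmb5 window held the element core, its first base 47 bases before the start, and no CCAAT box. The Psmb3 window held 2 CCAAT boxes, the Psmd14 window 1, and the Psmd1 window neither motif. RefSeq promoters were matched for 30 of the 37 members. The element core was found in 4 of these 30, namely Psmb5, Psmb6, Psmd9 and Psmd12, a share of 13.3%, against 10.2% of all 32851 promoters of the same length. The CCAAT box was found in 12 of 30, against 33.8% of all promoters. Members were counted as genes, 2 of them with 2 starts, and all promoters were counted singly, so the shares differ in unit. Of the 9 matched members called higher in the transgenic liver, 1 held the element core and 4 a CCAAT box. Over the 30 members the shares lie near those of all promoters. A match of letters is a description, not a binding site.

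Values are log2 intensities from robust multi-array averaging (RMA), so a difference of 1 is a doubling. Array medians were 4.61 to 4.65 in the transgenic model and 4.38 to 4.40 in the antisense model, so levels were compared only within a model. Of the 37 members, 35 had a mean above 4.74, the level of the lowest 40% of all genes. The 2 members below it were Psma8 and Psmb11, the testis and thymus forms of core subunits. Hepatocyte markers were high throughout, with a mean over 8 genes of 12.4 to 12.7 on every array. That mean was 12.61 to 12.70 on wild type and 12.41 to 12.61 on transgenic arrays. In transgenic liver 7 of the 8 markers were lower, 2 of them at an unadjusted limma p under 0.05 (lowest adjusted p 0.362). Each array correlated with the others of its group at a median r of 0.987 or more. The lowest were wild type 2 (0.987), control ASO 4 (0.988) and ACAT2 ASO 1 (0.992), and results that rest on them are given below with and without them. Because liver is a mixture of cells, fewer cells of a type and less RNA per cell cannot be told apart.

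In the transgenic liver, all 30 members of the constitutive core and cap had a higher mean than in wild type. Among them, genes of the beta ring, the base and the lid rose past the threshold. Of the 7 other members, which belong to the immunoproteasome, the tissue-restricted core and the cap assembly chaperones, none did. Sem1, a lid gene that the symbol rule left out, read 10.22 to 10.40 on wild type and 10.22 to 10.35 on transgenic arrays. Of the 37 members, 11 rose at a limma adjusted p under 0.05 over all genes (called, from here on), and 0 fell. Across all genes 0.228% were called, 0.170% as higher and 0.0585% as lower. At an unadjusted p under 0.05, 27 members were higher and 0 lower, where 6.36% of all genes were higher and 4.52% lower. The median log2 change was 0.24 over the members and 0.0058 over all genes. The median over the 30 constitutive subunits was 0.25, and 52.6% of all genes lay above 0.

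**Figure D1:**
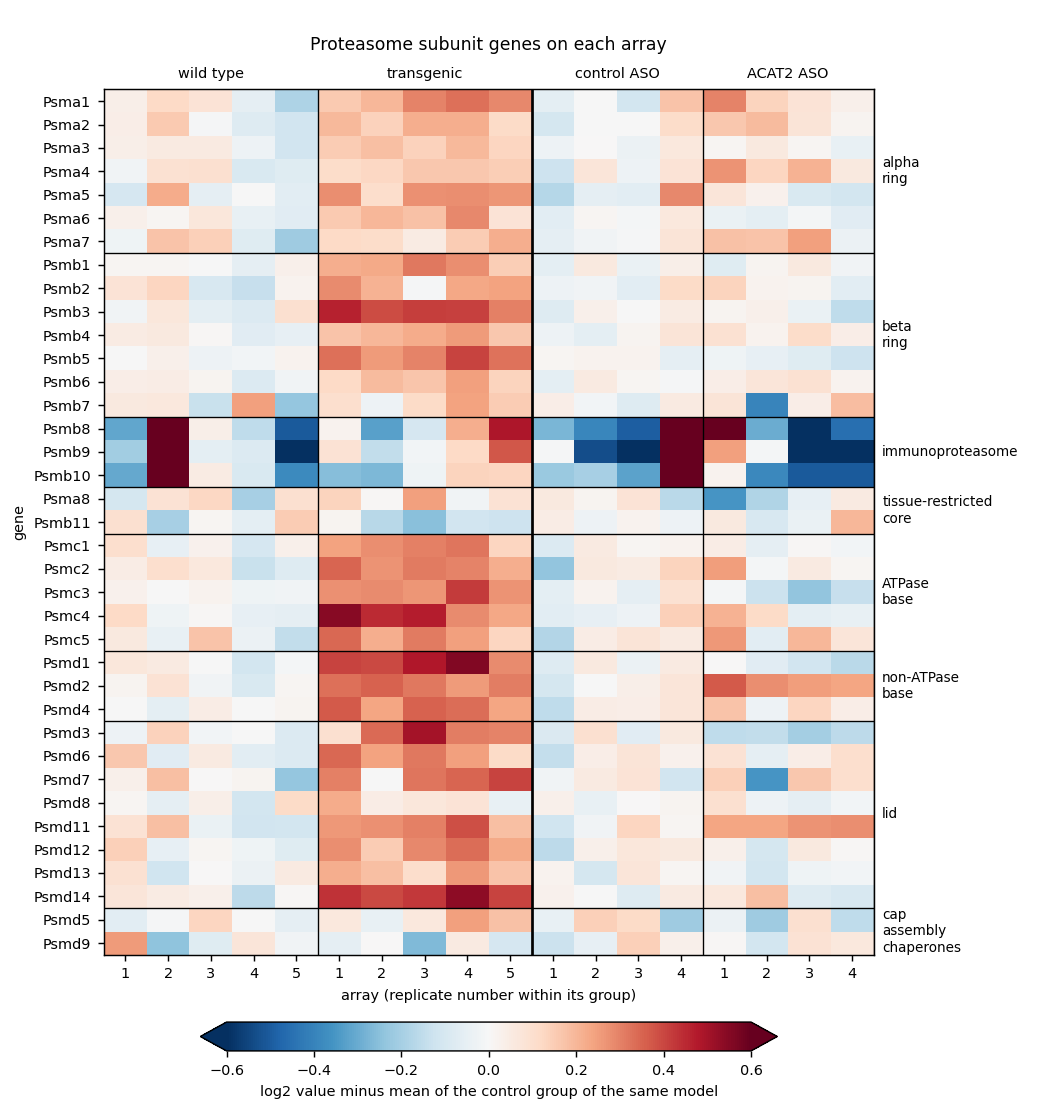
Log2 value of each of the 37 subunit genes (rows, by place in the complex) on each of the 18 arrays (columns), minus the mean of the control group of the same model; red is higher, blue lower, and values past 0.6 either way share the end colour. The 5 transgenic columns are red through the core and cap rows, while the 3 immunoproteasome rows vary most between arrays of one group.

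The shift was seen on each transgenic array. Relative to the wild type mean, the median deviation of the 30 constitutive subunits was 0.27, 0.21, 0.30, 0.28 and 0.22 on transgenic arrays 1 to 5. On the wild type arrays it was 0.04, 0.05, 0.01, -0.06 and -0.06. At least 28 of the 30 genes lay above the wild type mean on each transgenic array. By the median deviation, the 5 arrays of each group formed ranges that did not meet. For Actb, the excess of the 3′ over the 5′ control probe set, which grows as RNA degrades, was 0.89 to 1.26 on transgenic and 0.83 to 1.02 on wild type arrays. For Gapdh the same excess was 0.11 to 0.28 on transgenic and 0.13 to 0.23 on wild type arrays. The part of RNA quality in the shift was not tested.

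The non-ATPase base subunits hold the base together and capture ubiquitin. All 3 members of this group were called higher, with a median of 0.31. Adrm1, a further ubiquitin receptor of the base, was matched to no probe set with a single gene symbol. Psmd1 encodes a large scaffold subunit that also docks ubiquitin receptors. Its wild type values were 9.77, 9.75, 9.70, 9.59 and 9.69, and its transgenic values 10.10, 10.09, 10.18, 10.25 and 9.98. Every transgenic array lay above every wild type array, the nearest pair being transgenic 5 and wild type 1. The log2 change was 0.42 ± 0.05 (SE, 5 against 5 arrays, limma adjusted p = 0.00167), an increase of 34.1%. Psmd2, the other scaffold subunit, read 9.08, 9.15, 9.05, 8.97 and 9.08 on the wild type arrays, against 9.40, 9.42, 9.38, 9.32 and 9.37 on the transgenic arrays. The groups did not overlap and each spanned a narrow range. The change was 0.31 ± 0.04 (limma adjusted p = 0.00392). Psmd4, a receptor for ubiquitin chains, changed by 0.31 ± 0.05 (limma adjusted p = 0.0125).

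The lid removes ubiquitin chains before the substrate enters. Its catalytic member Psmd14, the deubiquitinating metalloprotease, had the highest log2 change of the family. It read 9.47, 9.44, 9.42, 9.23 and 9.40 on the wild type arrays, against 9.83, 9.79, 9.82, 9.93 and 9.80 on the transgenic arrays. Wild type 4 was the lowest array and transgenic 4 the highest, and the groups lay well apart. The change was 0.44 ± 0.06 (SE, limma adjusted p = 0.00179), an increase of 35.5% with a 95% interval of 0.32 to 0.56 on the log2 scale. Psmd14 was the only one of the 8 lid members called. The lid median was 0.27, and 7 of the 8 had an unadjusted p under 0.05. Psmd3, Psmd12 and Psmd11, structural lid subunits, lay just outside the threshold at 0.31, 0.26 and 0.28 (limma adjusted p = 0.0558, 0.0674 and 0.0686). Psmd8, also structural, had the smallest change of the lid, 0.07 ± 0.05, with overlapping groups.

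In the ATPase base, whose ring unfolds the substrate and opens the gate of the core, 3 of 5 measured genes were called and the median was 0.29. Psmc4 read 10.19, 10.05, 10.08, 10.02 and 10.02 on the wild type arrays, against 10.62, 10.52, 10.54, 10.35 and 10.30 on the transgenic arrays. Transgenic arrays 4 and 5 were lower than the other transgenic arrays but still above all wild type arrays. The change was 0.39 ± 0.07 (limma adjusted p = 0.0174). Its call was lost without wild type 3, wild type 4 or transgenic 1 (limma adjusted p up to 0.0577). Psmc3 read 9.70, 9.67, 9.69, 9.64 and 9.65 on the wild type arrays, against 9.95, 9.96, 9.94, 10.09 and 9.94 on the transgenic arrays. Within each group the arrays lay close together, apart from transgenic 4, which stood above the rest. The change was 0.30 ± 0.05 (limma adjusted p = 0.00731). Psmc1 changed by 0.25 ± 0.05 (limma adjusted p = 0.0306), a call lost without any 1 of wild type 2, 3 and 4 and transgenic 1 to 4 (up to 0.0988, without transgenic 4). Psmc5 had the smallest change, 0.25 ± 0.07 (limma adjusted p = 0.187).

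In the beta ring 4 of 7 genes were called and the median was 0.20. Psmb5 carries the chymotrypsin-like site, the target of clinical proteasome inhibitors, and had the lowest adjusted p of the family. It read 9.85, 9.88, 9.82, 9.83 and 9.87 on the wild type arrays, against 10.18, 10.11, 10.15, 10.25 and 10.18 on the transgenic arrays. The wild type arrays hardly differed, and the lowest transgenic array was well above the highest of them. The change was 0.32 ± 0.04 (SE, limma adjusted p = 0.000659), an increase of 25.2%. The other catalytic subunits did not pass the threshold. Psmb6, with the caspase-like site, differed by 0.17 ± 0.04 with groups apart (limma adjusted p = 0.0800). Psmb7, with the trypsin-like site, had the smallest change of the ring, 0.12 ± 0.10 (limma adjusted p = 0.742), with a wild type range of 8.94 to 9.42 that took in every transgenic array.

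The other called genes of the beta ring encode non-catalytic subunits. Psmb3 read 10.62, 10.70, 10.58, 10.55 and 10.73 on the wild type arrays, against 11.09, 11.02, 11.05, 11.04 and 10.94 on the transgenic arrays. All transgenic arrays exceeded all wild type arrays, and transgenic 5 was the lowest. The change was 0.39 ± 0.05 (limma adjusted p = 0.00150), and a second probe set of the gene differed by 0.25. Psmb1 changed by 0.24 ± 0.04 (limma adjusted p = 0.0174) and Psmb4 by 0.20 ± 0.04 (limma adjusted p = 0.0413). The call of Psmb1 was lost without wild type 3, wild type 4 or transgenic 4 (adjusted p up to 0.0649). That of Psmb4 was lost without any 1 array of the model except wild type 2 and transgenic 5 (up to 0.123, without transgenic 4).

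In the alpha ring, which gates the core, 0 of 7 genes were called by limma, although 6 of 7 had an unadjusted p under 0.05 and all 7 lay above 0. The median was 0.18 and the range 0.13 to 0.25. Psma1 had the largest change, 0.25 ± 0.07 (limma adjusted p = 0.138). It read 10.18, 10.26, 10.23, 10.09 and 9.96 on the wild type arrays, against 10.30, 10.34, 10.44, 10.48 and 10.43 on the transgenic arrays. The groups did not overlap, but they lay close together, and wild type 5 stood lowest. Psma7 had the smallest change, 0.13 ± 0.07 (limma adjusted p = 0.525), and its other probe set differed by 0.29. Whether the alpha ring changed less than the cap was not tested.

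**Figure D2:**
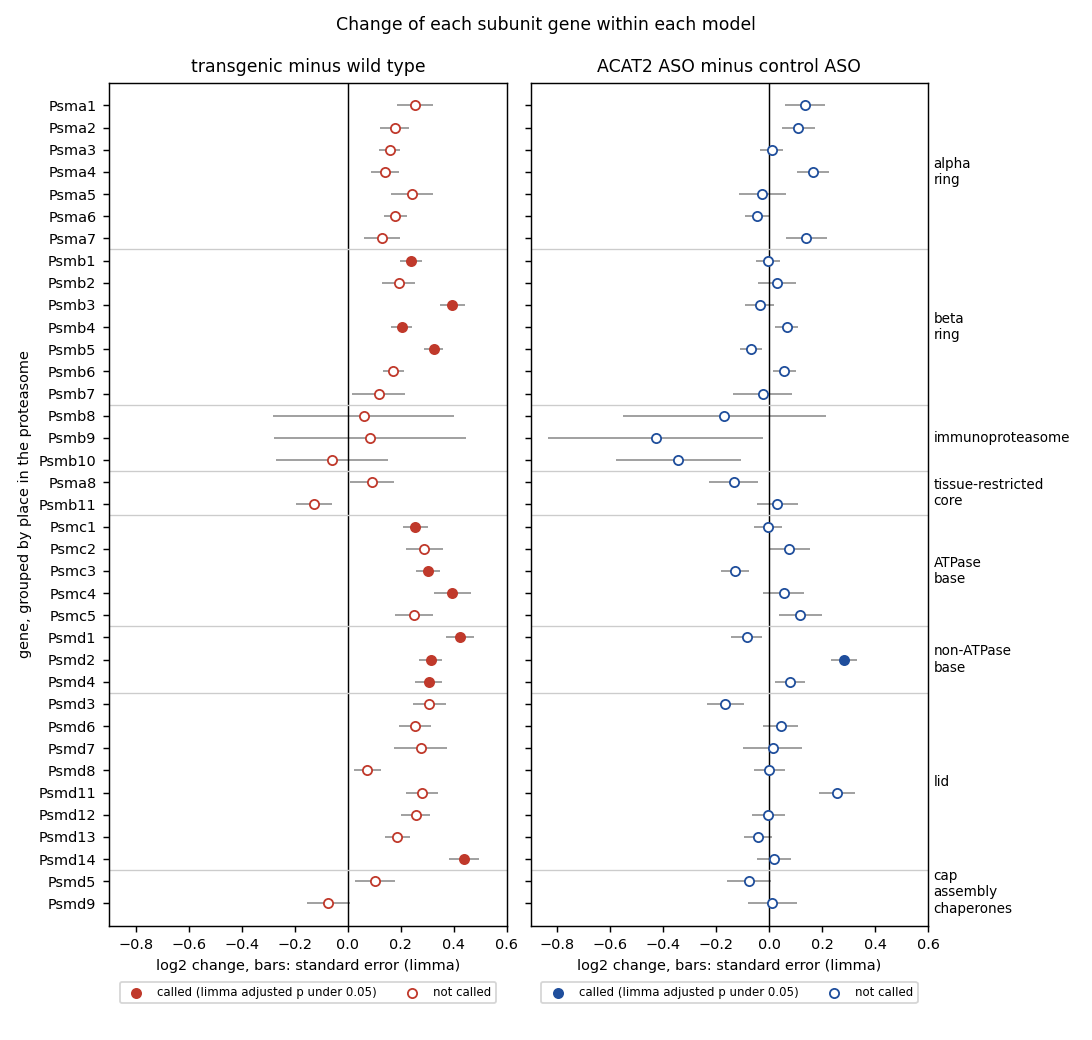
Log2 change of each of the 37 genes, with the limma standard error as a bar, for transgenic minus wild type (left) and ACAT2 ASO minus control ASO (right); filled points are called at an adjusted p under 0.05 over all genes. On the left the core and cap genes lie between 0.07 and 0.44 and 11 are filled; on the right they lie on both sides of 0 and only Psmd2 is filled.

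The arrays of all transgenic samples lay above those of all wild type samples for 20 of the 37 members, against 1.42% of all genes. These were 4 of 7 in the alpha ring, 5 of 7 in the beta ring, 4 of 5 ATPases, 3 of 3 other base subunits and 4 of 8 lid genes. For no member did they all lie below (0.801% of all genes did). A second measurement within the same arrays came from 21 further probe sets of 13 members, 12 of them above the level of the lowest 40%. Of these 12, 10 had the sign of the chosen probe set, with a median of 0.19. The 4 that belonged to called genes all lay above 0, namely Psmb3 (0.25), Psmc4 (0.34) and Psmd4 (0.27 and 0.05). Of the 11 calls, those of Psmb3, Psmb5, Psmc3, Psmd1, Psmd2 and Psmd14 held under all alternatives but the replicate block, which ended all 11. The calls of Psmb1 and Psmc4 ended in the fit on the arrays of this model alone (that of Psmb1 also with quantile normalization), that of Psmd4 with the mean of probe sets, and those of Psmb4 and Psmc1 under several alternatives.

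**Figure D3:**
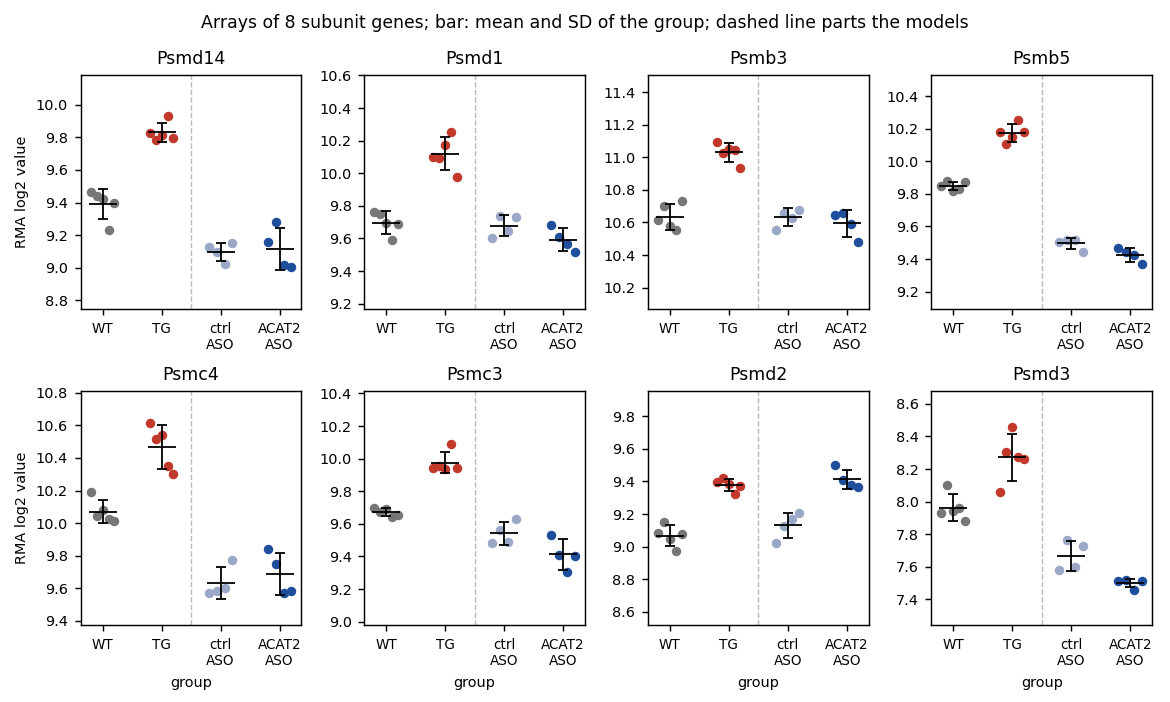
RMA log2 values of 8 subunit genes on each array (points), with the group mean and SD (bars), for wild type (WT), transgenic (TG), control ASO and ACAT2 ASO; each panel spans the same number of log2 units. Transgenic points lie above wild type points in every panel except Psmd3, where 1 transgenic array falls among the wild type arrays, and of the 8 genes Psmd2 has its ACAT2 ASO points above and Psmd3 below the control ASO points.

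The immunoproteasome genes differed from their constitutive counterparts in how they varied. Psmb8, counterpart of Psmb5, read 8.80, 10.05, 9.15, 8.97 and 8.61 on the wild type arrays, against 9.14, 8.79, 9.02, 9.33 and 9.60 on the transgenic arrays. Wild type 2 was the highest array of the model, and the transgenic range lay within that of wild type. The difference was 0.06 ± 0.34 (limma adjusted p = 0.977), with a 95% interval of -0.66 to 0.78, wide enough to hold the change of Psmb5. Psmb9, counterpart of Psmb6, differed by 0.08 ± 0.36 and Psmb10, counterpart of Psmb7, by -0.06 ± 0.21 (limma adjusted p = 0.967 and 0.958). Without wild type 2 the differences of Psmb8, Psmb9 and Psmb10 were 0.29, 0.33 and 0.12, and none was called. The median SD within groups was 0.60 over these 3 genes, 0.08 over the constitutive subunits and 0.13 over all genes above the level of the lowest 40%.

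In the antisense model the values of the immunoproteasome genes depended on control ASO 4. Psmb8 read 8.05, 7.93, 7.83 and 9.48 with control ASO and 9.17, 8.03, 7.54 and 7.87 with ACAT2 ASO. Control ASO 4 and ACAT2 ASO 1 were high and the other arrays low. Psmb9 read 9.18 on control ASO 4 and at most 7.82 on the other control arrays, against 8.07, 7.81, 6.71 and 6.98 with ACAT2 ASO. The differences of Psmb8, Psmb9 and Psmb10 were -0.17, -0.43 and -0.34 (limma adjusted p = 0.903, 0.720 and 0.581). Without control ASO 4 they were 0.22, 0.02 and -0.10, and without ACAT2 ASO 1 they were -0.51, -0.65 and -0.46. Without wild type 2, control ASO 4 and ACAT2 ASO 1 together they were -0.12, -0.20 and -0.22, and none was called in any of these fits. The third probe set of Psmb9, whose mean of 4.28 lay below the level of the lowest 40%, differed by -0.33 in the fit of every probe set (limma adjusted p = 0.0437). Its transgenic change minus its ASO change was 0.43 (limma adjusted p = 0.0407).

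Wild type 2 and control ASO 4, the highest arrays of their groups in immunoproteasome genes, were also high in interferon-regulated genes. Irf1, a transcription factor induced by interferon, read 9.69 on wild type 2 and 7.37 to 8.13 on the other wild type arrays. It read 9.41 on control ASO 4 and 7.37 to 7.52 on the other control ASO arrays. Gbp2, an interferon-induced GTPase, read 10.24 on wild type 2 and 10.12 on control ASO 4, against at most 8.20 and 6.37 on the others of these groups. Among the transgenic arrays the order was mixed. Transgenic 5 was highest for Psmb8 and Psmb9 (9.60 and 9.44) and for H2-K1 (12.52). Irf1 and Gbp2 were highest on transgenic 3 (8.33 and 8.56). The mean over the 9 measured genes of antigen presentation and interferon response was 8.55 to 10.13 in wild type, 8.72 to 9.19 in transgenic, 7.82 to 9.52 in control ASO and 7.82 to 8.73 in ACAT2 ASO liver. In the transgenic comparison H2-K1 differed by -0.10 and Igtp by 0.35, or by -0.04 and 0.83 without wild type 2. With ACAT2 ASO, Irf1 differed by -0.53 and Ifit1 by -0.51, or by -0.05 and 0.0013 without control ASO 4. Of the 9 genes, 5 lay above 0 and 4 below with ACAT2 ASO, with a median of 0.03. In the transgenic comparison 4 lay above 0 and 5 below, with a median of -0.02. None of the 9 was called by limma in either comparison, and 0 had an unadjusted p under 0.05. The mean of 9 macrophage markers ranged over 7.78 to 9.56, 7.96 to 8.73, 7.38 to 8.76 and 7.36 to 9.20 in the same order of groups. With ACAT2 ASO all 9 markers lay above 0, with a median of 0.43. Of them, 1 had an unadjusted limma p under 0.05 (lowest adjusted p 0.313). In the transgenic comparison 4 of the 9 lay above 0. The mean of 11 lymphocyte markers ranged over 5.19 to 5.79, 5.36 to 5.68, 4.90 to 5.39 and 4.92 to 5.34. Of these markers, 3 lay below the level of the lowest 40%. The mean of 3 neutrophil markers, 1 of them below that level, ranged over 5.00 to 6.75, 5.11 to 5.78, 5.05 to 6.58 and 5.13 to 6.09. Its highest values in wild type and control ASO liver were those of wild type 2 and control ASO 4. The median array of this mean was higher in transgenic than in wild type liver, and higher with ACAT2 ASO than with control ASO. The part of these cells in the immunoproteasome values was not tested.

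**Figure D4:**
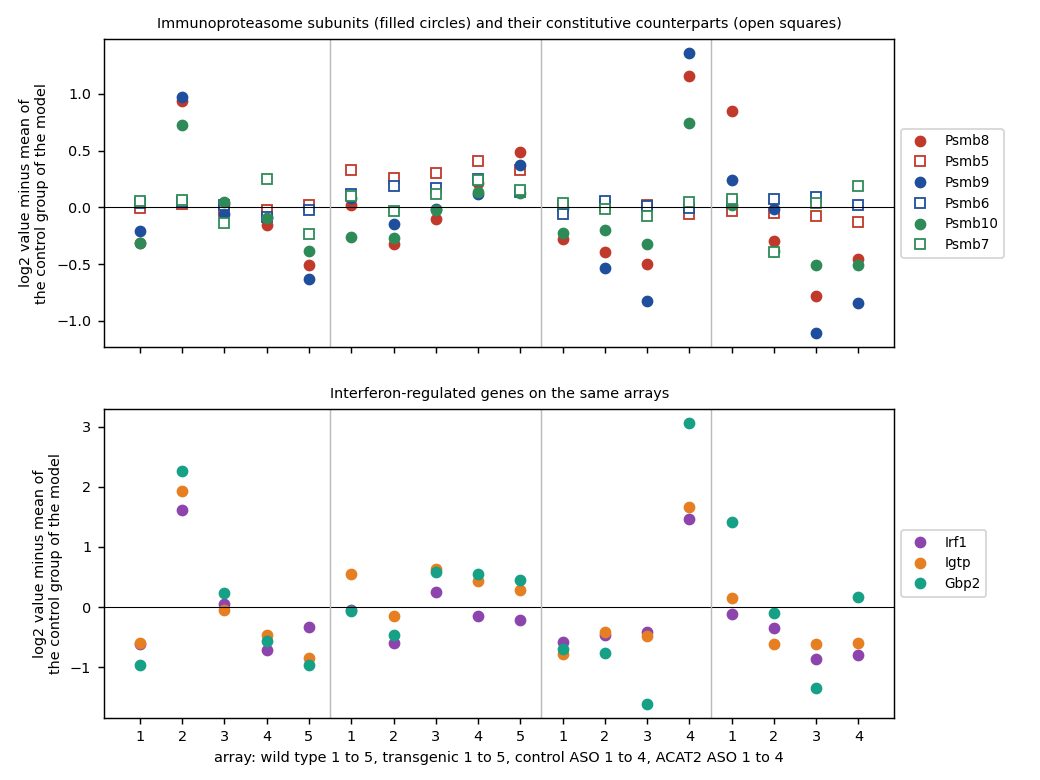
Top, log2 values of Psmb8, Psmb9 and Psmb10 (filled circles) and their constitutive counterparts Psmb5, Psmb6 and Psmb7 (open squares) on each array, minus the mean of the control group of the model; bottom, the same for the interferon-regulated genes Irf1, Igtp and Gbp2. Wild type 2 and control ASO 4 are high in both panels for the filled points, while the open squares there stay nearer 0. Psmb5 and Psmb6 lie above 0 on every transgenic array, and single arrays of Psmb7 lie away from 0.

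The remaining members showed no difference past the threshold in the transgenic comparison. Psmd5 and Psmd9, chaperones that help to assemble the ATPase ring, differed by 0.10 and -0.07 (limma adjusted p = 0.681 and 0.820). Psma8 and Psmb11, both below the level of the lowest 40%, differed by 0.09 and -0.13.

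In the antisense model, whose arrays are separate from those of the transgenic model, 1 of 37 members was called higher by limma, against 0.181% of all genes, and 0 were called lower. That member was Psmd2, the base scaffold subunit. It read 9.02, 9.13, 9.17 and 9.20 with control ASO and 9.50, 9.41, 9.38 and 9.37 with ACAT2 ASO. All ACAT2 ASO arrays lay above all control arrays, with ACAT2 ASO 1 the highest and control ASO 1 the lowest. The change was 0.28 ± 0.05 (SE, 4 against 4 arrays, limma adjusted p = 0.0119), an increase of 21.6%, and the call held when each of the 8 arrays was left out (adjusted p up to 0.0491, without ACAT2 ASO 1). It was lost in the fit on the arrays of this model alone (adjusted p = 0.107). It was also lost with the mean of the probe sets (change 0.13, adjusted p = 0.0991). Its other probe set, below the level of the lowest 40%, differed by -0.02.

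The family as a whole was centred near 0 with ACAT2 ASO. There were 19 members above and 18 below 0, and the median was 0.0091, where that of all genes was -0.00056. Psmd14 differed by 0.02, with a 95% interval of -0.12 to 0.15. Psmb5 differed by -0.07, with an interval of -0.15 to 0.02, and Psmd1 by -0.09, with -0.21 to 0.04. At an unadjusted p under 0.05, 3 members were higher and 2 lower, near the shares of all genes (5.68% and 7.63%).

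Those 5 members, apart from Psmd2, did not pass the adjusted threshold. Psmd11, a lid subunit, read 9.20, 9.30, 9.45 and 9.33 with control ASO and 9.56, 9.55, 9.59 and 9.60 with ACAT2 ASO, with no overlap. Its difference was 0.26 ± 0.07 (limma adjusted p = 0.0914). Psma4 of the alpha ring differed by 0.17 ± 0.06 (limma adjusted p = 0.217). On the low side were Psmc3 at -0.13 ± 0.05 and Psmd3 at -0.17 ± 0.07 (limma adjusted p = 0.290 and 0.310). Psmd3 read 7.58, 7.76, 7.60 and 7.73 with control ASO and 7.51, 7.52, 7.46 and 7.51 with ACAT2 ASO, so that its groups did not overlap either. In all, 2 members lay wholly above and 1 wholly below the controls, against 4.39% and 4.67% of all genes.

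By place in the complex, the medians with ACAT2 ASO were 0.11 in the alpha ring, -0.0052 in the beta ring, 0.05 in the ATPase base, 0.08 in the non-ATPase base and 0.0064 in the lid. The alpha ring ran from -0.04 for Psma6 to 0.17 for Psma4. The beta ring ran from -0.07 for Psmb5 to 0.07 for Psmb4, and its call count was 0 of 7 with no unadjusted p under 0.05. The ATPases ran from -0.13 for Psmc3 to 0.12 for Psmc5, and the lid from -0.17 for Psmd3 to 0.26 for Psmd11.

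The difference between the models was tested directly as the transgenic change minus the ASO change. It uses the same transgenic arrays on which the family was noticed, so it is not independent of them. In this test 6 of 37 members were called, all higher in the transgenic comparison, against 0.766% of all genes called higher and 1.07% called in either direction. At an unadjusted p under 0.05, 17 members were higher and 0 lower (8.69% and 6.66% of all genes). Psmd1 differed by 0.51 ± 0.08 (limma adjusted p = 0.00540), Psmb5 by 0.39 ± 0.05 (0.00300), Psmc3 by 0.43 ± 0.07 (0.00766) and Psmb3 by 0.43 ± 0.07 (0.00978). These 4 calls held in all 18 fits that left out 1 array. Psmd3 differed by 0.47 ± 0.09 and Psmd14 by 0.42 ± 0.09 (limma adjusted p = 0.0249 and 0.0270). Psmd3 was lost without ACAT2 ASO 1, 3 or 4 or control ASO 2, and Psmd14 without any 1 of transgenic 4, ACAT2 ASO 3 or 4 and control ASO 1, 2 or 4 (adjusted p up to 0.0602 and 0.0679, each without ACAT2 ASO 3). Psmd14 was also lost with quantile normalization within each model (limma adjusted p = 0.0552). Without wild type 2, ACAT2 ASO 1 and control ASO 4 together, 4 members were called, and Psmd3 and Psmd14 were not.

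Psmd2 and Psmd11 gave the smallest differences among the base and lid genes. Psmd2 differed by 0.03 (limma adjusted p = 0.881, 95% interval -0.11 to 0.17), having risen in both models. Psmd11 differed by 0.02 (adjusted p = 0.934, interval -0.17 to 0.22). In the alpha ring, Psma4 and Psma7 differed by -0.02 and -0.01, and no alpha subunit was called.

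Genes that work with the proteasome but are not members were followed on lists, of which no gene was called by limma in either comparison. Of the 5 chaperones that assemble the core, 2 had an unadjusted p under 0.05 in the transgenic comparison, both higher. Pomp, the maturation protein of the beta rings, read 10.65, 10.87, 10.67, 10.73 and 10.52 on the wild type arrays, against 10.89, 10.91, 10.88, 11.05 and 10.97 on the transgenic arrays. Its groups did not overlap, though wild type 2 came close to the lowest transgenic array, and its difference was 0.25 ± 0.06 (limma adjusted p = 0.0914). Psmg3 differed by 0.25 ± 0.06 (limma adjusted p = 0.0851). With ACAT2 ASO, Psmg1 differed by -0.17 and Pomp by -0.10 (limma adjusted p = 0.233 and 0.571).

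Of the activators that replace the cap, Psme1 and Psme2, which are induced by interferon, differed by -0.01 and -0.04 in the transgenic comparison, or by 0.12 and 0.10 without wild type 2. The nuclear activator Psme3 differed by 0.11 there and by 0.09 with ACAT2 ASO, and the inhibitor Psmf1 by -0.17 with ACAT2 ASO (limma adjusted p = 0.352). Among 6 measured cap-bound partners, Ecpas, which holds core and cap together, differed by 0.20 (limma adjusted p = 0.345), and the deubiquitinase Usp14 by 0.06 in transgenic and 0.25 in ACAT2 ASO liver (adjusted p = 0.889 and 0.337). Txnl1 of that list differed by 0.12 in transgenic liver and Ube3c by -0.10 with ACAT2 ASO. Of the regulators of subunit genes, Nfe2l1 itself differed by 0.07 ± 0.10 (limma adjusted p = 0.886) and by -0.04 with ACAT2 ASO. Levels of its RNA say nothing of the cleaved, active protein. Nfe2l2, which encodes the related factor NRF2, differed by -0.31 ± 0.08 in transgenic liver (limma adjusted p = 0.148), and Ngly1, the enzyme that NRF1 needs for its activation, by 0.20 ± 0.06 (adjusted p = 0.206). Of the 6 listed genes for ubiquitin supply, Uba6 alone was measured by a probe set with 1 symbol. It read below the level of the lowest 40%.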

How the data were processed

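Expression was measured in 18 liver samples on Affymetrix GeneAtlas MG-430 PM arrays. The deposited log2 values are RMA values, per the submitters' processing notes, and the version is not given in the sources used here. Scanner files were not used. RMA combines background correction, quantile normalization and probe summary, and it compresses small differences of dim probe sets. The lower array medians of the antisense model are why levels were compared only within a model. The direct test between the models compared changes that were each taken within a model.

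From 45141 probe sets, 104 controls were left out, and 28898 had 1 symbol in the platform annotation, 551 several and 15588 none. The probe set with the highest mean stood for each of 17097 genes, with no filter on low values. All 37 members were matched to RefSeq by Entrez ID with no symbol changed. Promoters came from RefSeq (GRCm38.p6).

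One limma model (version 3.58.1, R 4.3.3) with a mean per group was fitted to all 18 arrays, with Benjamini-Hochberg adjustment over all genes. The model was also run on simulated data, with independent noise and with added changes larger than any member showed within a model. That run therefore does not speak of changes as small as those of the members. Members named are those called in any contrast, the largest and smallest change of each subunit group, and the immunoproteasome genes with their counterparts. Partner genes named are the 2 with the smallest p of their list and Nfe2l1. A few others were chosen after their values were seen (Psme1, Psme2, Sem1, Uba6, Irf1, Igtp, Gbp2 and members near a threshold). The members and lists were chosen with earlier results of these data known. Alternatives changed the filter, scaling, probe sets per gene, arrays fitted, variance model, array weights, replicate block, threshold and single arrays. The fit without 3 arrays was added after seeing the data. The number of arrays limits the precision. The transcript targeted by the ASO was not analysed here.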

Additional observations from a re-analysis of the deposited data

Results flagged for a closer look

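Within groups, 14 of 148 sets of arrays (37 members in 4 groups) had 1 array that stood apart from the rest by Dixon's criterion, which chance meets about 1 time in 20. Control ASO 4 stood apart for 4 members: high for Psmb8 at 9.48, Psmb10 at 9.89 and Psmc4 at 9.78, and low for Psmb5 at 9.44. Control ASO 1 was low for Psmc5 at 8.77 and Psmd4 at 9.53. ACAT2 ASO 2 was low for Psmd7 at 7.57 and Psmd13 at 8.20, and ACAT2 ASO 3 for Psmd3 at 7.46. Among transgenic arrays, array 2 was low for Psma5 at 9.36 and Psmd7 at 8.23, and array 3 for Psmb2 at 9.27. Transgenic 4 was high for Psmc3 at 10.09 and for Psmd14 at 9.93.

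For 6 members the transgenic change differed from the ASO change in the direct limma test: Psmb3 by 0.43, Psmb5 by 0.39, Psmc3 by 0.43, Psmd1 by 0.51, Psmd3 by 0.47 and Psmd14 by 0.42.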

How the results depend on the processing

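The transgenic count of 11 called members was 7 in a fit on the model's own arrays and 6 at an adjusted p under 0.01, and ranged from 7 to 12 when single arrays were left out, with 7 without wild type 3 and 7 without wild type 4. It was 9 to 11 under the other scalings, filters, probe set rules, weights and variance models, and 12 without the 3 arrays named in the report. The median of 0.24 was 0.19 with the mean of probe sets. The antisense count of 1 was 0 with the mean of probe sets (6 members at an unadjusted p under 0.05), 0 on the model's own arrays (4) and 0 at an adjusted p under 0.01 (5), and 2 with array weights. The 6 members called for the difference ranged from 4 to 7 without single arrays.

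With the replicate number as a block, 0 members were called by limma in any contrast, with 26, 4 and 14 members at an unadjusted p under 0.05 in the transgenic, antisense and difference contrasts. The correlation of deviations between samples of the same number was 0.17, -0.48, 0.05, -0.03 and -0.22 in the transgenic model. In the antisense model it was -0.48, 0.11, 0.47 and -0.31. Whether samples of the same number share more than that number was not tested.

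Small changes that were never called changed sign. With quantile normalization the ASO changes of Psmb1, Psmb7, Psmc1 and Psmd8 became 0.023, 0.0058, 0.014 and 0.017. With the mean of probe sets those of Psmb3 and Psmc1 became 0.018 and 0.025, and the transgenic change of Psmb8 became -0.034. With array weights the ASO changes of Psmb7 and Psmd14 became 0.037 and -0.0014. Without the 3 arrays the ASO change of Psmb1 was 0.030 and the transgenic change of Psmb10 was 0.12. Over fits without single arrays, ASO changes ran from -0.026 to 0.017 for Psmb1, -0.026 to 0.073 for Psmb11, -0.062 to 0.0020 for Psmb3, -0.094 to 0.10 for Psmb7, -0.51 to 0.22 for Psmb8, -0.70 to 0.025 for Psmb9, -0.032 to 0.013 for Psmc1, -0.037 to 0.055 for Psmd14, -0.033 to 0.017 for Psmd8 and -0.030 to 0.060 for Psmd9. Transgenic changes ran from -0.066 to 0.29 for Psmb8, -0.073 to 0.33 for Psmb9 and -0.15 to 0.12 for Psmb10. Where no cause is given above, the cause was not tested.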
